A study of Mus musculus with 384 samples.

Results

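Grp-only dopamine (DA) neurons were single cells in which at least 10 reads of Grp and fewer than 10 reads of Neurod6 were counted, and 34 of the 384 cells of the series met this rule. The rule was applied to the 209 cells with at least 500000 reads counted on genes. Of the other retained cells, 126 had fewer than 10 reads of both genes (double-negative), 43 had at least 10 reads of both (double-positive), and 6 had Neurod6 without Grp (Neurod6-only). Because reads of Grp and Neurod6 defined the classes, their levels are given as a description, with no test, and every other gene was compared. The comparison asked what else set Grp-only cells apart from DA neurons without either marker, and then from those with both.

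Grp-only and double-negative cells came from the same 8 DAT-Cre;Ai9(RCL-tdT) mice, and double-positive cells from 7 of them. The mice were of strain C57BL6/J and, by the labels of single samples, aged 24 to 36 postnatal days, 3 of them female and 5 male. The source label gives a narrower age range, and the series' design text counts fewer females. In these mice Cre is made from the dopamine transporter locus and switches on tdTomato, so a cell that expressed the transporter at any earlier time is labelled too. The dissected piece held the midbrain and the hypothalamus, and cells positive for tdTomato and negative for propidium iodide (PI) were sorted, captured on Fluidigm C1 chips, and sequenced as polyA RNA. Each mouse had its own C1 run, so mouse and run cannot be told apart.

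Grp encodes gastrin-releasing peptide, a bombesin-like neuropeptide that is packed in dense-core vesicles and acts on the receptor encoded by Grpr. Neurod6 encodes a neuronal helix-loop-helix factor known from a ventromedial part of the ventral tegmental area (VTA). Among midbrain DA neurons, Sox6 and Aldh1a7 are known as markers of the ventral tier of the SNc (substantia nigra, compact part), and Otx2 and Calb1 as markers of VTA and dorsal tier neurons.

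Grp reads in the Grp-only cells ran from 10 to 586 per cell, with a median of 81, and 22 of the 34 cells had at least 50 reads. The cells just inside the threshold had 10, 14, and 17 reads, and the double-negative cells just outside it had 8, 5, and 4. No Grp read was counted in 113 of the 126 double-negative cells, so few cells lay near the limit. Double-positive cells had a median of 211 Grp reads. No Neurod6 read was counted in 29 of the 34 Grp-only cells, and the highest count was 3.

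**Figure D1:**
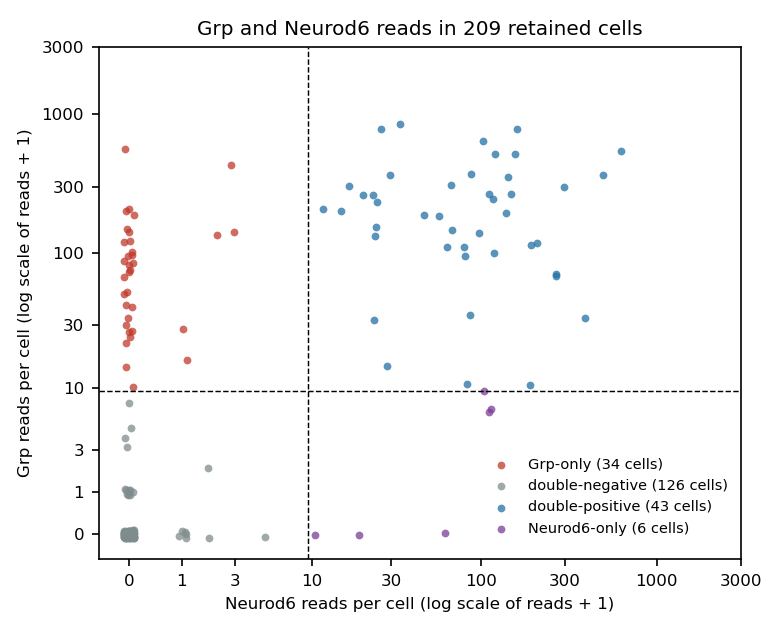
Reads of Neurod6 (x axis) and Grp (y axis) in each of 209 cells, both on a log scale of reads plus 1 with a small sideways scatter; points are cells, colors are classes, and dashed lines mark 10 reads. The 34 Grp-only cells sit in the upper left with at most 3 Neurod6 reads.

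Every mouse gave Grp-only cells, from 1 in mouse 4 to 9 in mouse 2. They made up 21.2% of the 160 cells without Neurod6 (34 cells, exact 95% binomial interval 15.2–28.4%), and 8.33% to 37.5% within single mice. At least 3 cells of each class were present in 6 mice (2, 3, 5, 6, 7, and 8), which gave 31 Grp-only and 102 double-negative cells for the comparison. Of these mice only mouse 6 was female, so the sexes could not be compared. A Grp-only sum held the reads of 3 to 9 cells and a double-negative sum those of 8 to 33 cells, so that a gene used by few cells was more easily missed on the Grp-only side.

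The DA label was borne out by the markers of most, but not all, cells. Slc6a3, the dopamine transporter, and Ddc, which makes dopamine from L-DOPA, reached 10 reads in all 34 Grp-only cells, and Th, the rate-limiting enzyme of dopamine synthesis, in 33. Among the double-negative cells Th reached 10 reads in 116 of 126. Fewer than 1000 CPM (counts per 1e6 reads of the cell or sum) of Th were counted in 2 Grp-only cells (5.88%), 26 double-negative cells (20.6%), and none of the 43 double-positive cells. The double-negative class was therefore the more mixed one, and the other cell types it held are given with the gene groups below.

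The depth of Grp-only cells lay close to that of double-negative cells on average. Grp-only cells had a median of 790400 reads (range 513870–1544810) and 9174 genes with a read. Over the 6 mice, the medians of Grp-only and double-negative cells differed by 454 ± 128595 reads (mean ± SD of the differences, n = 6) and were higher in Grp-only cells in 3 of 6 mice (p = 0.96875, two-sided, by exact permutation of the signs of the differences). The number of detected genes differed by -100 ± 571 (n = 6, higher in 3 of 6 mice, p = 0.75 in the same exact permutation test). The smallest p this test can give with 6 mice is 0.03125. The Grp-only sums held 2398039 to 7168009 reads and the double-negative sums 7145651 to 23652985.

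No gene passed the threshold between Grp-only and double-negative cells. With the reads of a class summed within each mouse, the quasi-likelihood test of edgeR gave 0 of 11785 genes (0%) a Benjamini-Hochberg adjusted p under 0.05. At an unadjusted p under 0.05, 179 genes (1.52%) were higher in Grp-only cells and 291 (2.47%) lower. DESeq2, on the same sums, called 35 genes, 6 of them higher (0.0509%) and 29 lower (0.246%). Values below are CPM in the summed cells of a mouse, and log2 fold changes are those of Grp-only over double-negative cells as fitted by edgeR, with a standard error (SE) or a 95% interval. The median log2 fold change over all genes tested was 0.02 and the median SE was 0.57. In such sums, fewer cells that use a gene and less RNA of it per cell cannot be told apart, so the share of a class's cells with at least 10 reads is given beside the level where it matters.

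The dopamine phenotype genes had values near those of double-negative cells, with intervals on both sides of 0 for most. Of 18 genes on the list 17 were tested and none passed; 1 reached an unadjusted p under 0.05, and the median log2 fold change was 0.29. Th had 4364, 5636, and 7944 CPM in Grp-only cells (lowest, median, and highest of 6 mice) and 2510, 4652, and 8992 CPM in double-negative cells. The ranges overlapped, and the log2 fold change of 0.19 had an interval of -0.41 to 0.78. Slc6a3 ran from 731 to 4827 CPM in Grp-only cells (median 3378) and from 1761 to 4407 CPM in double-negative cells (median 2673), with a log2 fold change of 0.19 (interval -0.60 to 0.98). With only cells of at least 1000 CPM of Th kept, the estimates for Th and Slc6a3 were both -0.03, and that for Slc18a2 was -0.08. For Slc18a2, which loads dopamine into vesicles, the log2 fold change was 0.10 (-0.53 to 0.73), for Ddc 0.29 (-0.23 to 0.81), and for the autoreceptor gene Drd2 0.18 (-0.67 to 1.03). For the transcription factors that keep DA identity, it was 0.34 for Nr4a2 (interval -0.09 to 0.77), 0.36 for En1 (-0.35 to 1.07), 0.79 for Foxa1 (-0.52 to 2.09), and -0.02 for Lmx1a (-0.67 to 0.63). Foxa2 (0.97, interval -0.86 to 2.80), Lmx1b (0.55, -1.07 to 2.18), En2 (0.54, -0.99 to 2.07), and Pitx3 (0.32, -2.23 to 2.87) had lower levels and wider intervals, and the estimate for Pitx3 turned to -0.63 with the mouse as a block. For the enzymes that break dopamine down, the values were 0.28 for Maoa (-0.58 to 1.14) and -0.13 for Maob (-2.39 to 2.14). The Maob estimate was -2.29 with the mouse as a block. All of these intervals included 0. Gch1, which makes the cofactor of Th, had 64.6 ± 44.6 CPM in Grp-only and 97.2 ± 43.9 CPM in double-negative cells (mean ± SD, n = 6) and was lower in 6 of 6 mice, with a log2 fold change of -0.54 (interval -1.46 to 0.37).

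Aldh1a1 was the gene of the phenotype list with the lowest p. It encodes a retinaldehyde dehydrogenase of ventral tier and some VTA neurons, and lies on chromosome 19 (20492583–20643463, GRCm38). Grp-only cells had 1490, 3071, and 8250 CPM (lowest, median, and highest of 6 mice) and double-negative cells 269, 1173, and 3011 CPM. The level was higher in Grp-only cells in 5 of 6 mice, mouse 3 being the exception, but the ranges overlapped. The log2 fold change was 1.39 (SE 0.56, interval 0.20 to 2.59, edgeR unadjusted p = 0.0253, adjusted p = 1). With the mouse as a block it was 1.79 (edgeR unadjusted p = 0.00172, adjusted p = 0.713). The share of cells with at least 10 reads differed less, at 76.5% of Grp-only and 71.4% of double-negative cells. All 43 double-positive cells reached 10 reads of Aldh1a1.

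Markers known from SNc neurons went both ways. None of the 16 nigral-type genes passed, 3 had an unadjusted p under 0.05, all of them higher, and their median log2 fold change was 0.04 against 0.02 for all genes. Sox6, a transcription factor of the ventral tier, had 7.53 to 58.9 CPM in Grp-only cells (median 22.8) and 14 to 87 CPM in double-negative cells (median 39.3), with a log2 fold change of -0.48 (interval -1.65 to 0.68). Aldh1a7 ran from 5 to 300 CPM in Grp-only cells and from 1.3 to 334 CPM in double-negative cells, so that the spread between mice covered any difference (log2 fold change -0.02, interval -1.95 to 1.91). The 3 genes with low p were Aldh1a1, Lmo3, and Vcan. Lmo3, an LIM-only transcriptional cofactor, had 489, 648, and 1291 CPM in Grp-only cells and 222, 380, and 797 CPM in double-negative cells (log2 fold change 0.82, SE 0.31, edgeR adjusted p = 1). Vcan, the matrix proteoglycan versican, had 29.2, 77.7, and 137 CPM against 0, 18.1, and 64.8 CPM (log2 fold change 1.84, SE 0.83, edgeR adjusted p = 1). At least 10 Vcan reads were counted in 50% of Grp-only cells and 14.3% of double-negative cells, a difference of 41.8 ± 30.4 percentage points over mice (mean ± SD, n = 6) that was positive in 5 of 6 mice. Anxa1, annexin A1, behaved alike in shares, with 52.9% of Grp-only and 19.8% of double-negative cells (31.5 ± 33.1 points, positive in 5 of 6 mice), while its summed level gave a log2 fold change of 0.92 with an interval of -1.19 to 3.04. In double-positive cells the shares were 67.4% for Anxa1 and 6.98% for Vcan.

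For the other nigral-type genes the intervals included 0. Serpine2, a secreted protease inhibitor, had 884 ± 387 CPM in Grp-only and 676 ± 426 CPM in double-negative cells (log2 fold change 0.42, interval -0.45 to 1.28). For Fgf1, a fibroblast growth factor, the interval was -0.78 to 0.63, for the neurotensin receptor gene Ntsr1 -0.99 to 0.93, for the chromatin organizer gene Satb1 -0.73 to 1.11, and for Chrna5, a nicotinic receptor subunit, -1.74 to 1.93. Ndnf (-3.16 to 0.80), Igf1 (-2.30 to 1.21), Kcns3 (-2.30 to 1.87), Nrip3 (-1.58 to 1.41), and Kcnj6 (-1.47 to 4.53) had wider ones, around estimates of -1.18, -0.55, -0.21, -0.09, and 1.53. With the mouse as a block the estimate for Kcnj6, a potassium channel subunit, turned to -1.12, and that for Kcns3 was -1.39.

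**Figure D2:**
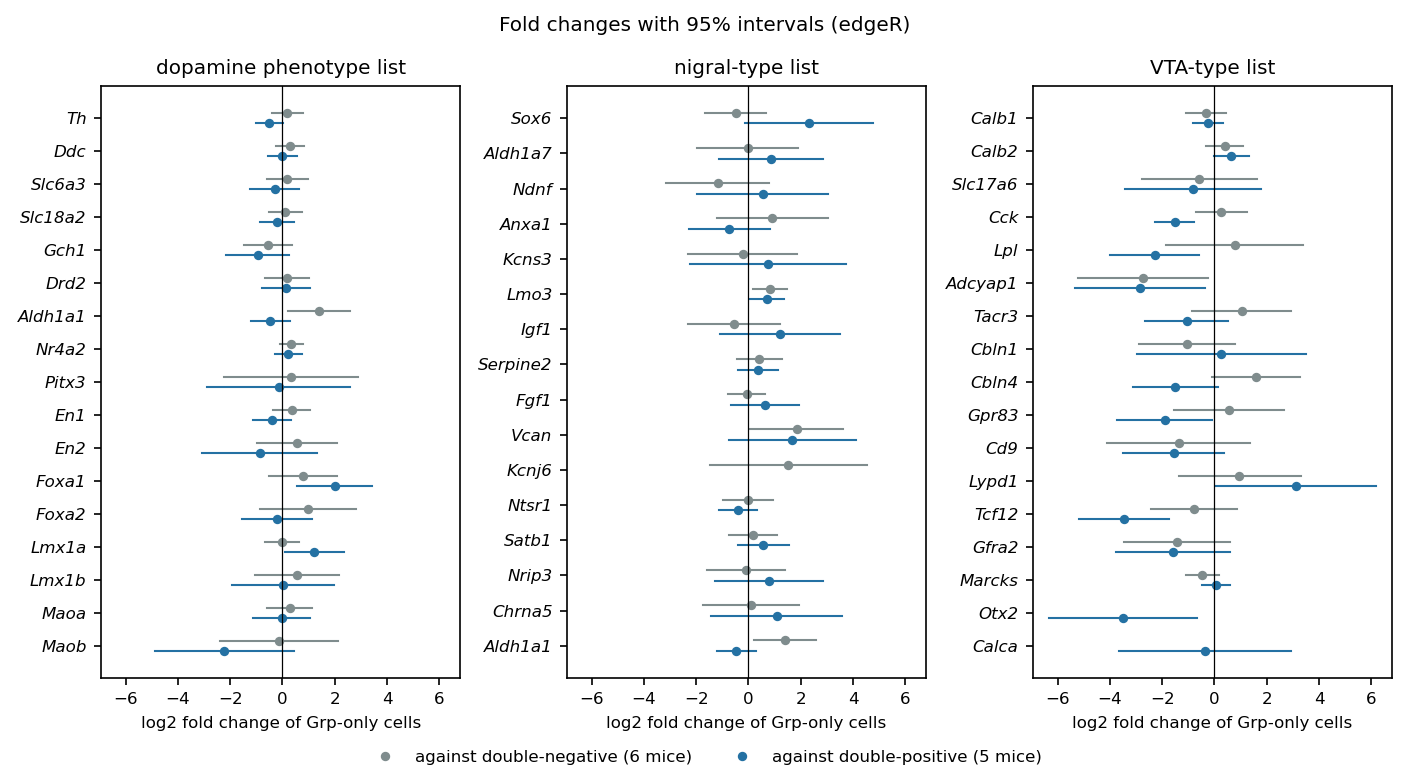
Log2 fold change of Grp-only cells (x axis) over double-negative cells (gray) and over double-positive cells (blue) for genes of 3 marker lists; dots are edgeR estimates and bars 95% intervals. Most gray intervals cross 0, while Otx2, Lpl, Tcf12, and Cck lie below 0 against double-positive cells.

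VTA-type genes were not higher as a group in Grp-only than in double-negative cells. Of 20 genes 16 were tested, none passed, 1 had an unadjusted p under 0.05 and was lower, and the median log2 fold change was -0.39. Some genes of this list are ones the study named in its Neurod6 cluster of these same cells, so the list is not independent of them. Otx2 was too low for the test, at 5.52 ± 8.62 CPM in Grp-only and 11.2 ± 18.3 CPM in double-negative cells (n = 6), and 10 reads were reached in 4 of 34 and 12 of 126 cells. Calb1, the calcium buffer calbindin, had 225 to 777 CPM (median 640) in Grp-only and 193 to 1112 CPM (median 742) in double-negative cells, with a log2 fold change of -0.32 (interval -1.07 to 0.44). It nevertheless reached 10 reads in 85.3% of Grp-only cells and 63.5% of double-negative cells (10.5 ± 17.7 points over mice, positive in 3 and negative in 1 of 6). Gpr83, a G protein-coupled receptor that the study names with Grp and Neurod6, had 0.85, 51, and 230 CPM in Grp-only cells and 7.78, 32.4, and 115 CPM in double-negative cells. Its log2 fold change of 0.55 had an interval of -1.54 to 2.65 and was -0.45 with the mouse as a block, and the shares of cells with 10 reads were 29.4% and 30.2%. Lpl (lipoprotein lipase) had a log2 fold change of 0.77 (interval -1.84 to 3.38) and Tacr3 (a tachykinin receptor) one of 1.05 (-0.84 to 2.94). Above 0 lay also the estimates of Cbln4, a secreted synapse organizer (1.60, interval -0.08 to 3.29), Lypd1 (0.96, -1.37 to 3.30), and Calb2, the calcium buffer calretinin (0.39, -0.32 to 1.09). Below 0 lay those of Gfra2, a receptor for neurturin (-1.42, -3.44 to 0.60), Cd9 (-1.37, -4.11 to 1.38), Cbln1 (-1.05, -2.87 to 0.77), Tcf12 (-0.79, -2.44 to 0.86), and Marcks (-0.46, -1.08 to 0.17). All of these intervals included 0, and Vip and Nts were too low for the test. With the mouse as a block the estimate for Lypd1 turned to -0.86 and that for Tacr3 was 0.19. With only cells of at least 1000 CPM of Th kept the estimate for Cd9 turned to 0.92.

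Adcyap1 was the VTA-type gene with the lowest p. It encodes the neuropeptide PACAP, and was counted at 0, 0.307, and 38.6 CPM in Grp-only cells and at 6.85, 57.1, and 177 CPM in double-negative cells (lowest, median, and highest of 6 mice). Every mouse had the lower value on the Grp-only side, and the shares of cells with 10 reads were 8.82% and 25.4%. The log2 fold change was -2.72 (SE 1.17, edgeR adjusted p = 1). It was -4.91 with the mouse as a block (edgeR adjusted p = 0.713) and -1.39 with only Th-rich cells (at least 1000 CPM of Th) kept (unadjusted p = 0.303). Calca, which encodes calcitonin gene-related peptide, had 351 reads in 31 Grp-only cells and 37 in 102 double-negative cells, but only 4 Grp-only cells reached 10 reads and the gene was too low for the test. Cck (cholecystokinin) had 77.4 ± 30.4 and 66 ± 46.1 CPM (log2 fold change 0.26, interval -0.71 to 1.24), and was reached with 10 reads in 73.5% of Grp-only and 49.2% of double-negative cells.

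Transmitter genes other than those of dopamine varied between mice more than between classes. Gad2, which makes GABA, had 2.1, 478, and 2468 CPM in Grp-only cells and 1.96, 101, and 1136 CPM in double-negative cells (log2 fold change 1.52, interval -1.41 to 4.44). Slc17a6, the vesicular glutamate transporter, ran from 0 to 485 CPM in Grp-only and from 38.9 to 403 CPM in double-negative cells (log2 fold change -0.57, interval -2.77 to 1.63). The Slc17a6 estimate turned to 0.25 with only Th-rich cells kept and was -2.21 with the mouse as a block. Of the 4 genes on the GABA neuron list 3 were tested, none had an unadjusted p under 0.05, and the median was 0.31. Gad2 and Slc17a6 together reached 10 reads in 9 of 34 Grp-only cells, 11 of 126 double-negative cells, and 5 of 43 double-positive cells. These counts pool the cells of all mice, and the pair was picked after its values had been seen and was not tested.

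Other bombesin-like peptides and receptors were scarce in every class, and none of the 4 genes on that list was tested. Grpr, the receptor for the Grp peptide, reached 10 reads in 3 of 34 Grp-only and 4 of 126 double-negative cells. Nmb, the related peptide neuromedin B, did so in 2 and 7 cells. Nmbr and Brs3 had no read in the 31 Grp-only cells of the 6 mice.

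Of 20 neuropeptides 6 were tested, none passed, and 3 had an unadjusted p under 0.05, all lower in Grp-only cells. They were Adcyap1, Tac1 (substance P; log2 fold change -5.25, SE 1.88), and Cartpt (CART peptide; -3.64, interval -6.84 to -0.45), each with an edgeR adjusted p of 1. These reads sat in few cells: Tac1 reached 10 reads in 11 and Cartpt in 23 of the 102 double-negative cells, and in 2 and 1 of the 31 Grp-only cells. Genes of the vesicle machinery had small fold changes. All 15 genes of dense-core vesicles and peptide processing were tested, none passed or reached an unadjusted p under 0.05, and their log2 fold changes lay between -0.43 and 0.38 with a median of 0.11. In shares of cells, Pcsk2, a prohormone convertase, and Cadps2, a priming factor of vesicle release, were higher in Grp-only cells in 6 of 6 mice. Such a pattern was found for 1.37% of all genes tested, and the opposite one, lower in 6 of 6 mice, for 0.866%.

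Of 7 nicotinic receptor genes tested 1 reached an unadjusted p under 0.05, with a median log2 fold change of -0.00. That gene was Chrna6, whose subunit is typical of DA neurons (chromosome 8, 27403212–27413944, GRCm38). Grp-only cells had 1133, 1544, and 2190 CPM (lowest, median, and highest of 6 mice) and double-negative cells 596, 655, and 1235 CPM. It was higher in Grp-only cells in 6 of 6 mice, although the ranges overlapped, with mouse 3 highest in both classes. The log2 fold change was 1.07 (SE 0.24, edgeR adjusted p = 0.481), it was 1.10 with the mouse as a block (edgeR adjusted p = 0.0633), and DESeq2 called the gene (adjusted p = 0.01). With only Th-rich cells kept the log2 fold change was 0.75 (unadjusted p = 0.00734).

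Among 20 channel genes tested 1 had an unadjusted p under 0.05 in each direction. Kcnip3, a partner of A-type potassium channels, had a log2 fold change of 0.83 (SE 0.33, edgeR adjusted p = 1). Kcnj3, a subunit of G protein-gated potassium channels, was counted only in mouse 2 among Grp-only cells, where 1 cell held all 13 reads, while the double-negative cells of the 6 mice had 3.34 to 53.6 CPM (median 18.9). Of the 102 double-negative cells 25 reached 10 reads of it. The log2 fold change was -5.73 (SE 1.31, edgeR adjusted p = 0.481; DESeq2 adjusted p = 0.000975).

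Of 30 axon guidance genes tested none passed, 2 had an unadjusted p under 0.05, both lower, and the median log2 fold change was -0.05. They were Nrp2, a semaphorin receptor (-3.42, SE 1.07, edgeR adjusted p = 1), and Sema6a, a transmembrane semaphorin (-3.22, SE 0.81, edgeR adjusted p = 0.587; DESeq2 adjusted p = 0.00704). One double-negative cell held 42.5% of that class's Sema6a reads. Of 11 Parkinson disease genes tested none passed, and the median was 0.09.

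Reads of other cell types lay mostly on the double-negative side. The summed level of 7 oligodendrocyte genes was 6.6 to 42.5 CPM in Grp-only cells and 34 to 3782 CPM in double-negative cells, and 4 of the 7 had no read in any Grp-only sum. Mbp, myelin basic protein, had 2.48, 7.26, and 15.9 CPM against 16.7, 47.5, and 784 CPM (log2 fold change -4.92, SE 1.05, edgeR adjusted p = 0.481), and 1 cell held 73.8% of the double-negative reads. With only Th-rich cells kept, its log2 fold change was -0.80 (unadjusted p = 0.433). Of the 10 hypothalamic-type genes 5 were tested, 2 had an unadjusted p under 0.05 (Arhgap36, -3.24, and Ghrh, -3.68), and the median was -0.95. Six6 and Six3, transcription factors of the hypothalamus, reached 10 reads in 0 of 34 Grp-only cells (a share of up to 8.82% is allowed when 3 cells are taken as the floor) and in 13 of 126 double-negative cells each. Microglial genes summed to at most 2.79 CPM in Grp-only and 3.92 CPM in double-negative cells, and endothelial genes to at most 9.17 and 292 CPM, of which Itm2a alone gave 9.17 and 291 CPM. Of 7 astrocyte genes only Slc1a2, a glutamate transporter, was tested (log2 fold change 0.96, SE 0.29, edgeR adjusted p = 1), and Aldh1l1, Aqp4, Gja1, and Gfap each reached 10 reads in 0 of 34 Grp-only cells, which again allows up to 8.82%. Of 9 dissociation response genes tested none had an unadjusted p under 0.05, and the median was -0.76. The part of these cells in the gene values was tested only by leaving out cells poor in Th, and edgeR then called 0 of 11218 genes (372 at an unadjusted p under 0.05).

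The genes with the lowest p, named although none passed, were those with at least 10 CPM in the higher class and the same direction in 6 of 6 mice. On the higher side they were Mttp, Chrna6, St6galnac5, Srgap3, Naa60, Cldn12, Rnf138rt1, Slc1a2, Lin7a, and Casd1, with log2 fold changes of 0.84 to 2.16. Mttp, the microsomal triglyceride transfer protein gene (chromosome 3, 138089855–138143418), had 18.1, 39.1, and 73.9 CPM in Grp-only cells and 5.74, 10.2, and 13 CPM in double-negative cells. The classes did not overlap, and the log2 fold change was 2.15 (SE 0.47, edgeR adjusted p = 0.481; DESeq2 adjusted p = 0.000537). The gene reached 10 reads in 44.1% of Grp-only, 23% of double-negative, and 37.2% of double-positive cells. St6galnac5, a sialyltransferase gene (chromosome 3, 152819885–152982210), had 31.7, 52.5, and 153 CPM against 7.42, 14.6, and 31.5 CPM, so that the lowest Grp-only sum was just above the highest double-negative sum (log2 fold change 2.16, SE 0.49, edgeR adjusted p = 0.481, DESeq2 adjusted p = 0.00314). It reached 10 reads in 55.9% of Grp-only, 29.4% of double-negative, and 55.8% of double-positive cells. Srgap3, a signaling protein of the slit-robo pathway (chromosome 6, 112717971–112947505), had 185, 207, and 374 CPM against 97.5, 131, and 163 CPM (log2 fold change 0.95, SE 0.22, edgeR adjusted p = 0.486, DESeq2 adjusted p = 0.0116). Nearly all cells used the gene, with 10 reads in 94.1% and 92.1% of them.

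On the lower side the 10 genes were Stk30, Mbp, Ap5z1, Mmp17, Slc5a11, Cpne6, Bmp1, Kcnj3, Abhd3, and Grhl1, with log2 fold changes of -6.70 to -2.69. Cpne6, a calcium-binding copine of neurons (chromosome 14, 55510445–55517435), had 0.85, 32, and 44 CPM in Grp-only cells and 88, 154, and 300 CPM in double-negative cells, without overlap (log2 fold change -2.69, SE 0.59, edgeR adjusted p = 0.481; DESeq2 adjusted p = 0.00165). It was used by many double-negative cells, 73% with at least 10 reads, and by 26.5% of Grp-only cells, a difference of -43.3 ± 22.6 points that was negative in 6 of 6 mice. Abhd3, a phospholipase, was similar in kind, with 8.82% and 43.7% of cells and a difference of -38.9 ± 21 points. The other genes were used by few cells of either class. Ap5z1, an adaptor protein subunit, had 0.14, 1.38, and 1.98 CPM against 2.48, 17.2, and 28.2 CPM, and reached 10 reads in 21 of 102 double-negative cells. Stk30, Mmp17, Slc5a11, and Grhl1 reached 10 reads in 16 to 20 of the 102 double-negative cells and in none of the 31 Grp-only cells. Of the Bmp1 reads of double-negative cells, 80.8% came from 1 cell.

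**Figure D3:**
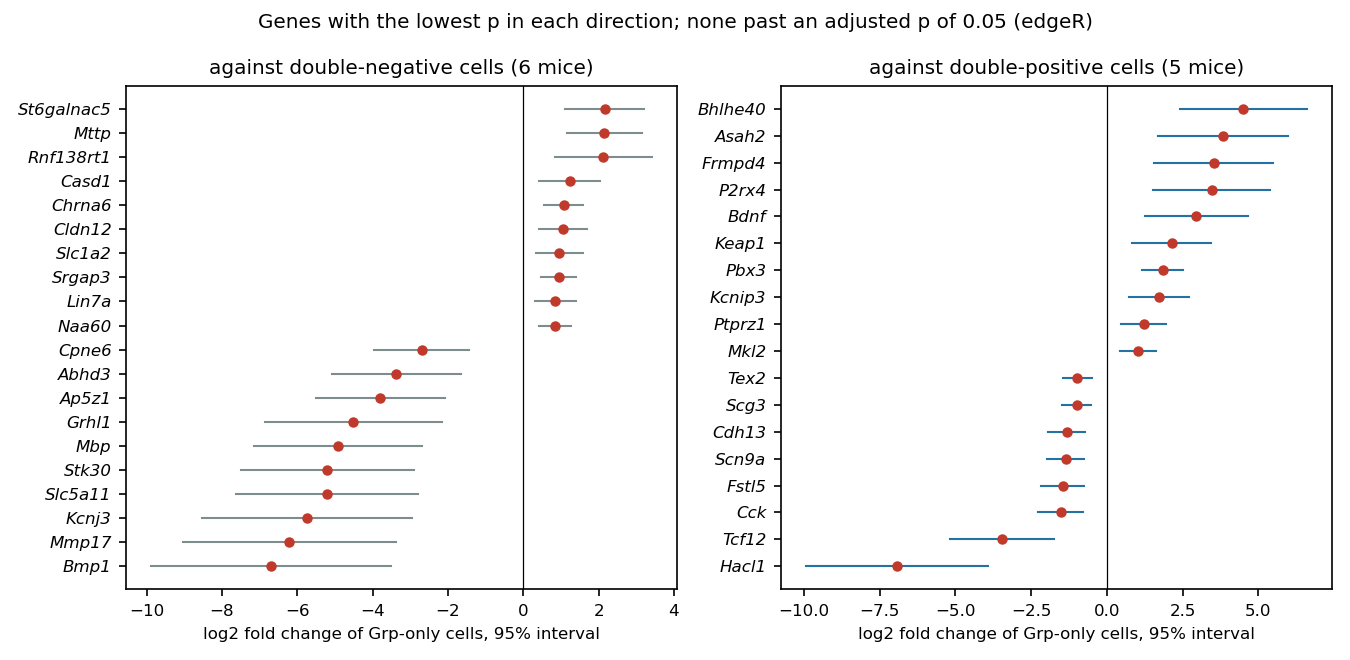
Log2 fold change of Grp-only cells (dots) with 95% intervals (bars) for the genes with the lowest p in each direction, against double-negative cells (left, 6 mice) and double-positive cells (right, 5 mice). By edgeR no gene had an adjusted p under 0.05, while DESeq2 called some of them. Otx1 and Cbfa2t3, with no read in the Grp-only cells of these 5 mice, are left out on the right.

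The Grp-only cells varied among themselves. Of the 34, 14 had at least 10 reads of Sox6 without Otx2, 4 had Otx2 without Sox6, none had both, and 16 had neither. By this pair the double-negative cells were divided in nearly the same way, with 58, 12, 0, and 56 of 126 cells. The double-positive cells were not, with 1 cell with Sox6 alone, 26 with Otx2 alone, 3 with both, and 13 with neither. Sox6 and Calb1 divided Grp-only and double-negative cells less alike. Both reached 10 reads in 11 Grp-only, 19 double-negative, and 3 double-positive cells, and Sox6 without Calb1 in 3, 39, and 1. These pairs of genes were picked after their values had been seen and were not tested. Of 4 genes that most double-positive cells expressed (Gpr83, Lpl, Tacr3, and Otx2, also chosen from their values), at least 3 reached 10 reads in 41 of 43 double-positive cells, 4 of 34 Grp-only cells, and 8 of 126 double-negative cells. None of the 4 was reached in 17 Grp-only and 52 double-negative cells.

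**Figure D4:**
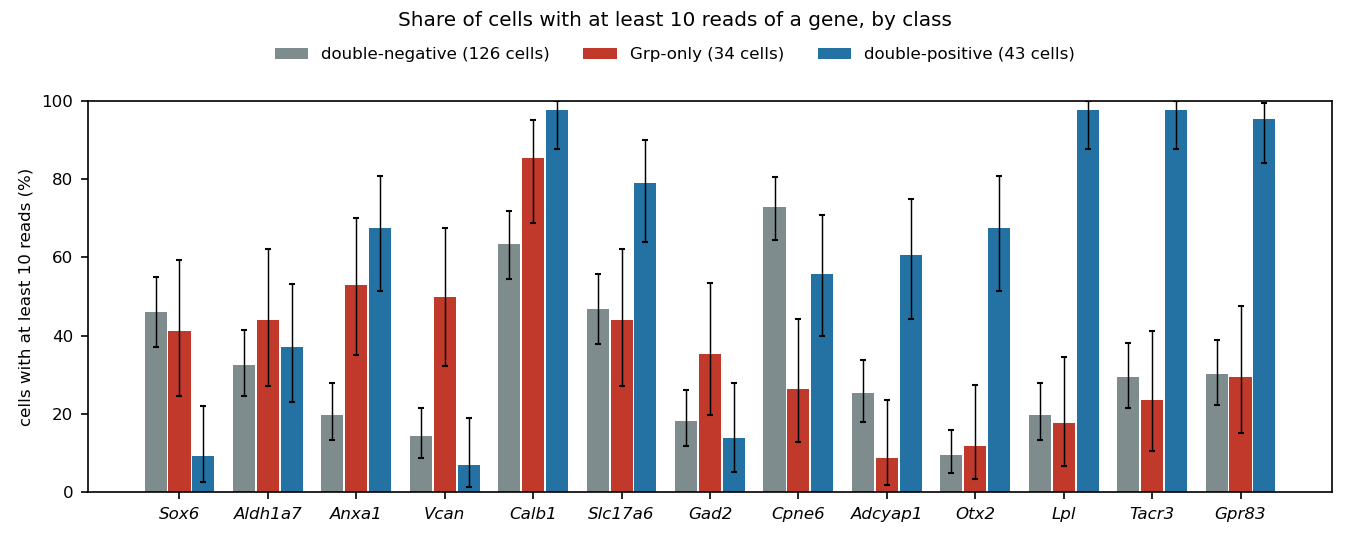
Percent of cells with at least 10 reads (y axis) of 13 genes (x axis) in double-negative (gray), Grp-only (red), and double-positive (blue) cells; bars are shares over all cells of a class and lines exact 95% binomial intervals, which cover counting error only. Grp-only cells lie near double-negative cells for Otx2, Lpl, Tacr3, and Gpr83, which 67.4% to 97.7% of double-positive cells expressed.

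To show where cells with Grp alone differed from cells with Grp and Neurod6, 26 Grp-only and 38 double-positive cells of 5 mice (2, 3, 5, 7, and 8) were compared in the same way. This comparison shares its Grp-only cells with the first. No gene passed (0 of 10983, 0%, edgeR with Benjamini-Hochberg adjustment). At an unadjusted p under 0.05, 185 genes (1.68%) were higher in Grp-only cells and 250 (2.28%) lower, and DESeq2 called 26, of which 9 were higher (0.0819%) and 17 lower (0.155%).

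The values of VTA-type genes were mostly lower in Grp-only than in double-positive cells. Of 18 tested none passed, 6 had an unadjusted p under 0.05 and were lower and 1 was higher, and the median log2 fold change was -1.27 against 0.02 for all genes. The higher one was Lypd1 (3.11, interval 0.05 to 6.17), with 10 reads in 20.6% of Grp-only and 2.33% of double-positive cells. The study found Lypd1 mRNA in the SNc as well as in the VTA. Above 0 lay also Calb2 (0.65, higher in 5 of 5 mice), Cbln1 (0.27), and Marcks (0.05). The share of cells with 10 reads was lower in Grp-only cells in 5 of 5 mice for 7 of the 18 (Otx2, Lpl, Adcyap1, Tacr3, Cbln4, Gpr83, and Tcf12), as it was for 1.52% of all genes tested, and it was higher in 5 of 5 mice for none, against 1.06% of all genes. The study's choice of some of these genes on the same cells applies here too. An exact sign-flip test over 5 mice cannot give a p below 0.0625, so no share was tested.

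Otx2, which specifies VTA neurons, had 18.1, 0, 0, 0, and 15 CPM in the Grp-only cells of mice 2, 3, 5, 7, and 8 and 42.2, 18.4, 129, 113, and 73.9 CPM in their double-positive cells. The classes did not overlap (log2 fold change -3.49, SE 1.31, edgeR adjusted p = 1). In the same order, Lpl had 165, 0.283, 50.3, 29, and 67.1 CPM against 262, 245, 391, 371, and 241 CPM (-2.28, SE 0.79, edgeR adjusted p = 1). These also did not overlap, and 17.6% of Grp-only against 97.7% of double-positive cells had 10 reads, a difference of -76.3 ± 16.5 points (mean ± SD, n = 5). Gpr83 had 230, 0.85, 17.4, 103, and 84.7 CPM against 372, 106, 396, 469, and 296 CPM, which overlapped between mice but was lower in each (-1.90, SE 0.84, edgeR adjusted p = 1). Tcf12, a basic helix-loop-helix factor, had 22.7, 0, 11.9, 9.56, and 23.4 CPM against 112, 59.9, 267, 154, and 149 CPM (-3.45, SE 0.80, edgeR adjusted p = 0.536; DESeq2 adjusted p = 0.0012). Cck had 122, 71.7, 75.5, 79.8, and 88 CPM against 232, 249, 466, 121, and 179 CPM (-1.52, SE 0.34, edgeR adjusted p = 0.485; DESeq2 adjusted p = 0.0208), although 73.5% and 76.7% of cells had 10 reads. For Cck the gap was thus in level and not in the share of cells.

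**Figure D5:**
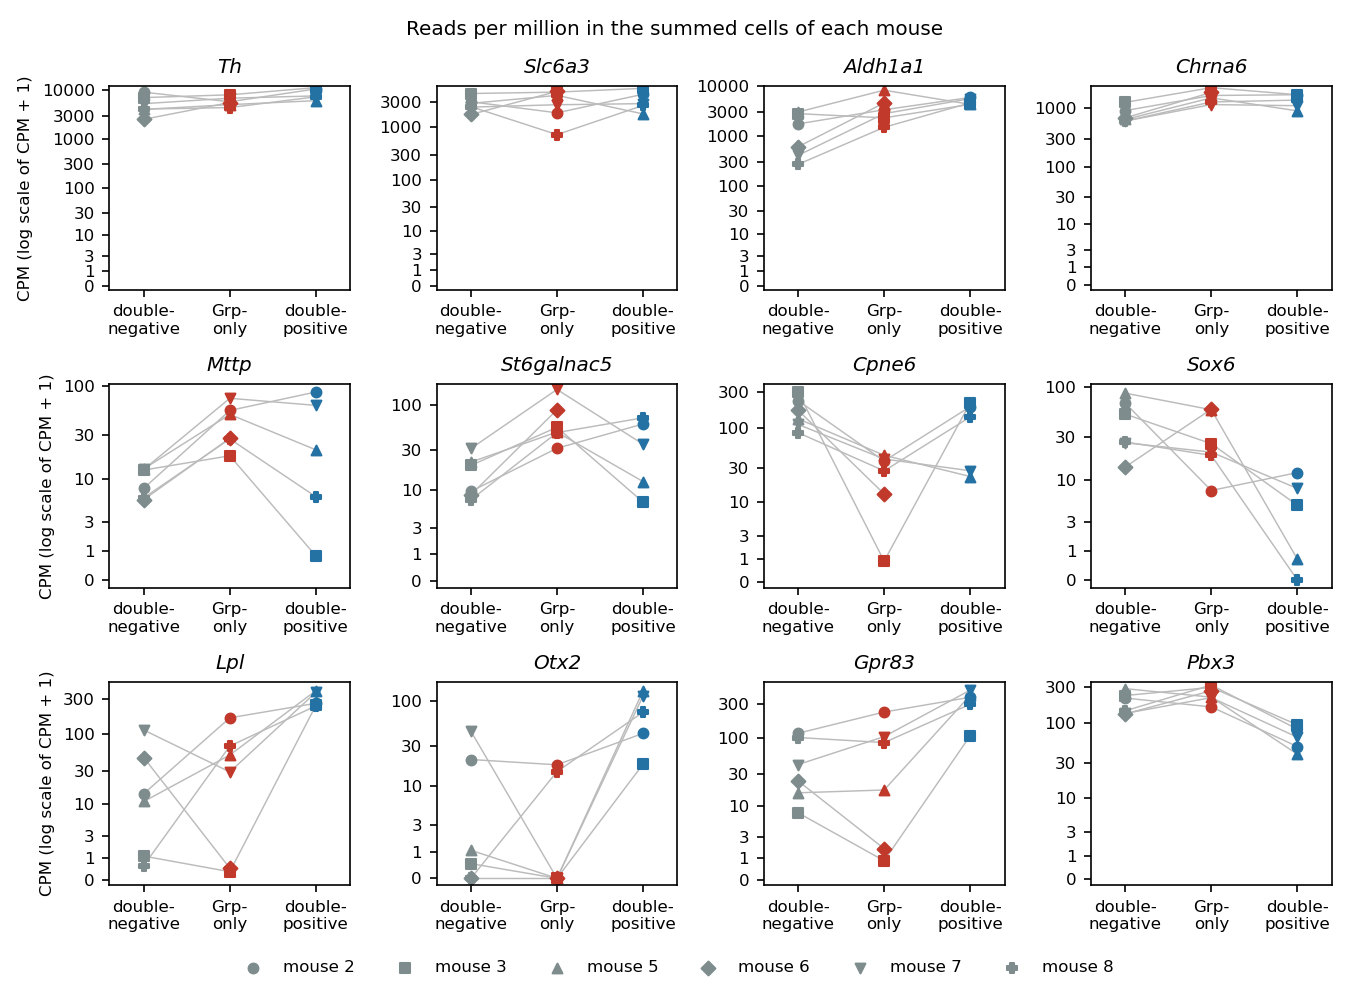
CPM (y axis, log scale of CPM plus 1) of 12 genes in the summed double-negative, Grp-only, and double-positive cells of each mouse; symbols are mice and gray lines join the sums of a mouse (6 mice, 5 for double-positive cells). Mttp and St6galnac5 are higher and Cpne6 is lower in the Grp-only than in the double-negative cells of every mouse, and Lpl and Otx2 are highest in the double-positive cells.

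Nigral-type genes had a median log2 fold change of 0.71 against double-positive cells. Of 15 tested none passed and 1, Lmo3, had an unadjusted p under 0.05 (0.71, SE 0.30, edgeR adjusted p = 1). Estimates below 0 were those of Anxa1 (-0.73, interval -2.27 to 0.81), Aldh1a1 (-0.46, -1.22 to 0.29), and Ntsr1 (-0.40, -1.14 to 0.34). Sox6 had 7.53, 25.2, 58.1, 20.4, and 18.8 CPM in Grp-only cells of mice 2, 3, 5, 7, and 8 and 12.1, 4.99, 0.649, 7.95, and 0 CPM in double-positive cells. It was higher in Grp-only cells in 4 of 5 mice (log2 fold change 2.31, interval -0.13 to 4.75). Among genes of the dopamine phenotype Th was lower in Grp-only cells in 5 of 5 mice, at 5737, 7944, 5004, 6775, and 4364 CPM against 10480, 11162, 6036, 7553, and 7233 CPM (-0.51, interval -1.03 to 0.01). With the mouse as a block the estimate for Th was -0.50 (edgeR unadjusted p = 0.00424, adjusted p = 0.783). Foxa1 (1.99, interval 0.54 to 3.44) and Lmx1a (1.22, 0.09 to 2.36), which specify DA neurons, were higher in 5 of 5 mice, each with an edgeR adjusted p of 1.

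Other lists held a few genes of low p in this comparison, and by edgeR no list had a gene past the threshold. Of 15 genes of dense-core vesicles 2 were higher and 1 lower at an unadjusted p under 0.05. The lower one, Scg3, a granin of the secretory granule, had 170, 191, 223, 171, and 220 CPM against 328, 312, 547, 306, and 462 CPM, without overlap (log2 fold change interval -1.48 to -0.52, edgeR adjusted p = 0.481; DESeq2 adjusted p = 0.0267). Pcsk2 (0.71, SE 0.29) and Pam, which amidates peptides (0.74, SE 0.33), were the higher ones. Of 28 axon guidance genes 2 were higher and 3 lower. The semaphorin receptor genes Nrp1 (-4.29, SE 1.28) and Nrp2 (-3.20, SE 1.08) were among the lower, and Sema3e (3.54, SE 1.12) and Robo2 (1.51, SE 0.59) were the higher, each with an edgeR adjusted p of 1. The median was 0.11 for pacemaker channels, 0.13 for nicotinic receptors, and -0.26 for Parkinson disease genes.

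Defining markers of endothelial cells and astrocytes were at or near 0 in both Grp-only and double-positive cells. Pecam1, Flt1, and Kdr had no read in any cell of either class, and Ly6c1 had none in double-positive cells. The endothelial list summed to 0 to 9.17 CPM in Grp-only and 43 to 69.9 CPM in double-positive cells through 1 gene, Itm2a, with 43 to 69.9 CPM in double-positive cells. Itm2a had a log2 fold change of -3.84 (SE 1.06, edgeR adjusted p = 0.981; DESeq2 adjusted p = 0.0125), and 8.82% against 55.8% of cells had 10 reads, with a lower share in 5 of 5 mice. Aldh1l1, Aqp4, and Gfap had no read in any cell of either class, and Gja1 and Slc1a3 reached 10 reads in none. Slc1a2, which reached 10 reads in 32 of 34 Grp-only and 43 of 43 double-positive cells, made up most of the astrocyte list's sum of 367 to 528 CPM against 574 to 1127 CPM (-0.77, SE 0.24, edgeR adjusted p = 1). Oligodendrocyte genes summed to 6.6 to 42.5 CPM against 22.1 to 283 CPM, with Mbp at -1.66 (interval -3.55 to 0.22) and Cnp at -2.45 (-4.93 to 0.04), and their part in the VTA-type values was not tested.

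Among all genes, the lowest p on the higher side under the same conditions belonged to Pbx3, a homeodomain cofactor, with 164, 293, 219, 216, and 314 CPM in Grp-only and 49.9, 95.9, 39.6, 66.1, and 84.3 CPM in double-positive cells (1.85, SE 0.32, edgeR adjusted p = 0.143; DESeq2 adjusted p = 9.96e-05). The classes did not overlap, and 97.1% and 74.4% of cells had 10 reads. Bdnf, a neurotrophin, had 31.8, 300, 76.1, 228, and 102 CPM against 7.09, 53.7, 3.03, 13, and 19.7 CPM (2.95, SE 0.79, edgeR adjusted p = 0.885, DESeq2 adjusted p = 0.0165). It was higher in each mouse, with overlap between mice. Bhlhe40, Frmpd4, Asah2, P2rx4, Kcnip3 (of the channel list), Mkl2, Keap1, and Ptprz1 completed that side. On the lower side Otx1, a homeodomain factor related to Otx2, had no read in the 26 Grp-only cells and 748 reads in the 38 double-positive cells, which is at least 161-fold lower when 3 reads over the class are taken as the floor. Over all 8 mice, 1 of the 34 Grp-only cells, from a mouse outside this comparison, had at least 10 reads of Otx1. Cbfa2t3, a corepressor, had 0 and 395 reads (at least 85.3-fold lower). Cdh13, Scn9a, Tex2, Fstl5, and Hacl1 were the others, with Scg3, Cck, and Tcf12, which are described above. The log2 fold changes of Cdh13, a cadherin, and Scn9a, a sodium channel, were -1.33 (SE 0.28) and -1.35 (SE 0.29), with edgeR adjusted p = 0.408 for both and DESeq2 adjusted p = 0.00947 and 0.00655.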

How the data were processed

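Single DA neurons were sequenced as polyA RNA without molecular identifiers. Per the labels and the study's methods, the authors trimmed reads with Trimmomatic 0.3.2, aligned them with TopHat2 2.1.1 to GRCm38, and used featureCounts 1.5.0-p3 with RefSeq genes for counting, leaving out reads of several genes. The deposited values are raw counts per gene and cell. Gene coordinates are those of RefSeq on GRCm38.p6. Spike-in and transgene entries (0.00457% of reads) were left out.

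Cells with at least 500000 reads were classed by 10 reads of Grp and of Neurod6. Counts were summed per mouse and class where a mouse had at least 3 cells of each class, and compared by the edgeR package (4.0.16, R 4.3.3; TMM, filterByExpr, quasi-likelihood test, Benjamini-Hochberg adjustment, threshold 0.05), with Grp and Neurod6 left out. DESeq2 1.42.0 and limma 3.58.1 served as alternatives, Python 3.11.15 with scipy 1.17.1 for shares and exact tests. Scripts were tested on simulated data. Intervals of shares and floors of 3 reads cover counting error only.

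Both classes came from the same animals, so the samples were paired. The main fit had no term for the mouse, so its intervals and p values did not use this pairing. The setting with the mouse as a block did. The correlation of the deviations of a mouse's Grp-only sum with its own double-negative sum was 0.0223 to 0.255, and with its double-positive sum 0.0285 to 0.183. A Grp-only sum correlated most with the sum of its own mouse, except in mouse 8 against double-negative and mouse 7 against double-positive cells.

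The classes, gene lists, and tests were chosen with earlier results of these data known. Genes of the dopamine phenotype, nigral-type, VTA-type, and bombesin-like lists and Gpr83 were named where measured. Genes past the threshold with at least 10 CPM in the higher class and 1 direction in every mouse were to be named by size, and up to 10 per direction with the lowest p where fewer passed. Other genes were named from the lists. Some items are not reported here. The alternatives changed the scaling, tool, filter, block, cells, mice, and thresholds.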

Additional observations from a re-analysis of the deposited data

Results flagged for a closer look

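In groups of 5 or 6 mice, 63 sets of values were looked at for a value far from the others, of which chance alone would mark about 5%, and 4 were found. Lmo3 was at 1291 CPM in the Grp-only cells of mouse 6 and at 797 CPM in the double-negative cells of mouse 3. Gad2 was at 1136 CPM in the double-negative cells of mouse 8. Kcnj3 was at 1.81 CPM in the Grp-only cells of mouse 2, and at 0 in those of the other mice.

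Cells under 500000 reads were in no comparison. Of these 175 cells, 13 had at least 10 reads of Grp and fewer than 10 of Neurod6 (7.43%, exact 95% binomial interval 4.01–12.4%), 2 had both genes, and 154 had neither. Their median depth was 88436 reads, and that of the 13 cells was 167073.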

How the results depend on the processing

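Between Grp-only and double-negative cells, the count of 0 genes by edgeR became 35 with DESeq2 and 2 with no filter on low counts, and leaving out 1 mouse at a time gave 0 to 2. The 2 genes were Cd36 and Calcr with no filter and again without mouse 3. Chosen after their values were seen, each had 1 read in the 31 Grp-only cells, against 3436 and 3413 reads in 9 and 13 double-negative cells with at least 10, ratios of 1106 (counting interval 198–43702) and 1099 (197–43410). With the mouse as a replicate block the count was 0 as well, with 610 genes at an unadjusted p under 0.05 in place of 470 and a smallest adjusted p of 0.0633 (edgeR). Against double-positive cells the count was 26 with DESeq2 and 0 in the other settings, with the mouse as a block 0 (520 at an unadjusted p under 0.05, in place of 435). Leaving out 1 mouse gave 0 throughout. The difference in detected genes per cell changed sign, to 172 with means over cells and 149 with at least 2 cells per class. The median log2 fold change of all genes was -0.13 with the block, -0.16 with limma, and -0.21 with no filter, against 0.02. Of 1417 values of 68 named genes of the comparison with double-negative cells under its alternatives, 100 changed sign, in 27 genes, and 15 passed a threshold, all with DESeq2. The causes were not tested. A Grp-only sum held 3 to 9 cells, and what part this had in the counts was not tested. Keeping only Th-rich cells left 0 genes in both comparisons, the second of which was chosen after seeing the data.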
